A study of Homo sapiens with 22 samples.

Results

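Heat-shocked and untreated HEK293T cells, both transfected with a scrambled small interfering RNA (siRNA), were compared on 8 of the 22 arrays of the study. The 4 heat-shocked samples had spent 1 h at 42 °C in a water bath, the 4 untreated samples came from cultures kept at 37 °C, and all 8 were assigned by the column names of the deposited scanner table. HEK293T cells derive from human embryonic kidney and express SV40 large T antigen, which binds p53, in treated and control cultures alike. The study also held 4 arrays of scrambled-siRNA cells returned to 37 °C for 6 h, and an arm with an siRNA against Satellite III (Sat III) transcripts with 3 untreated, 3 heat-shocked and 4 recovering arrays. Of these, the recovering scrambled cells and the untreated and heat-shocked Sat III siRNA cells are used below for comparison. The labels only number the replicates, so whether they were grown apart is unknown and the p-values may reflect technical spread alone. In these bulk samples, fewer cells with a transcript and less of it per cell cannot be told apart.

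In unstressed cells, heat shock factor 1 (HSF1) is held inactive by chaperones. Unfolded protein draws those chaperones away, HSF1 then forms trimers, binds heat shock elements made of repeated nGAAn units, and releases paused RNA polymerase II on chaperone genes. Heat also activates MAP kinases and with them the immediate early genes, while transcription of many other genes is cut back.

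Values are log2 normalised intensities, and changes are log2 differences of heat-shocked minus untreated ± SE, 4 against 4 arrays, from a limma fit over 10147 genes. A gene is said to rise or fall when its Benjamini-Hochberg adjusted p was under 0.05. By that rule 606 genes (5.97%) rose and 578 (5.70%) fell, 1184 in all (11.7%), while 2318 genes had an unadjusted p under 0.05. The large changes were mostly increases. At least 2-fold, 74 genes (0.729%) rose and 7 (0.069%) fell, and at least 1.5-fold 207 (2.04%) rose and 96 (0.946%) fell. The groups of 4 did not overlap for 1589 tested genes (15.7%), 1030 of them among the called ones. Median scaling of the arrays in place of quantile normalisation left 251 calls, all of them among the 1184, and moved the median change of all genes from -0.02 to -0.12.

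Detected probes numbered 13176 to 14281 per array. Median intensities before normalisation were 58.5 to 64.6 on the arrays of replicates 1 and 2 and 50.4 to 54.8 on those of replicates 3 and 4. The untreated replicate 2 stood apart most, with 7.33% of tested genes more than 0.5 away from the mean of the other 3 untreated arrays, against 1.10% to 2.76% for the other 7 arrays; without it 960 genes were called. Of 9 HEK293 lineage markers with a probe, 7 were detected on all 8 arrays, among them the neurofilament gene NEFM at 9.48 to 9.87, whereas the renal factor PAX2 was detected on none. Of 9 haematopoietic and 9 fibroblast and endothelial markers, 7 and 7 were detected on none of the 8 arrays, PTPRC and COL1A2 included, while CD68 and LUM were detected on all 8. Of 8 keratinocyte and carcinoma markers with a probe, KRT8, KRT18, CDH1, EPCAM and CDKN2A were detected on all 8 arrays and the other 3 on none. No tested marker of any of the 4 lists had an adjusted p under 0.05. The largest change was that of CD14, at 5.13 to 5.63 without heat and 5.73 to 6.05 with it.

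The response markers HSPA6, DNAJB1, DUSP1 and JUN all rose. Sequence before their start sites and that of SERPINH1, which also rose, is shown with motifs known to be bound by the HSF1 and CREB families. The motif to mark was chosen gene by gene, and binding was not tested. The 250 bases before the annotated start come from RefSeq (GRCh38.p14), at chr1:161524290-161524539 (plus strand) for HSPA6, chr19:14518398-14518647 (minus strand) for DNAJB1, chr11:75562003-75562252 (plus strand) for SERPINH1, chr1:58784048-58784297 (minus strand) for JUN and chr5:172771196-172771445 (minus strand) for DUSP1. The table holds 3 start sites for DNAJB1 and 2 for SERPINH1, and the one with the most of the searched motifs is shown. Capitals mark GAANNTTC and TTCNNGAA, 2 neighbouring heat shock units in either order, or in DUSP1 the cyclic AMP response element TGACGTCA. The DUSP1 window held no searched heat shock motif. TGACGTCA was no commoner in genes that rose at least 2-fold than in tested genes (3.70% against 4.02%).
HSPA6: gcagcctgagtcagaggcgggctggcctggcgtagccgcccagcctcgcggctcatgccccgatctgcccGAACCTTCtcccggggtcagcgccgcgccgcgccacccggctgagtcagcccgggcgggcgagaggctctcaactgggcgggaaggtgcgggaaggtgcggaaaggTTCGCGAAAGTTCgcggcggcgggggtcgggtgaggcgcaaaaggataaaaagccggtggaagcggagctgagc
DNAJB1: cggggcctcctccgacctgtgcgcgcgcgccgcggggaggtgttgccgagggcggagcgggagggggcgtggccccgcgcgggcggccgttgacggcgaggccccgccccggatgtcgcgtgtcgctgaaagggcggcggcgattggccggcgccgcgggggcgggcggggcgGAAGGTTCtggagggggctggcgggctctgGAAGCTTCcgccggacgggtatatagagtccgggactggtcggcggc
SERPINH1: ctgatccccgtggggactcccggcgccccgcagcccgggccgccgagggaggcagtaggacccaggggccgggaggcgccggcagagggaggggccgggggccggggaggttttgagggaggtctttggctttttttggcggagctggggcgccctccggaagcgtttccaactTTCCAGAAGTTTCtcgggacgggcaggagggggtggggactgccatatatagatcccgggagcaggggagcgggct
JUN: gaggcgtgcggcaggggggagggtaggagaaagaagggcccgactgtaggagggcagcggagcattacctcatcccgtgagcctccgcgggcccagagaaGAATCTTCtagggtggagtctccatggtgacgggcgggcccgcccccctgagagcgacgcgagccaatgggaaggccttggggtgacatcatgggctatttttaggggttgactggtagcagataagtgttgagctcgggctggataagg
DUSP1: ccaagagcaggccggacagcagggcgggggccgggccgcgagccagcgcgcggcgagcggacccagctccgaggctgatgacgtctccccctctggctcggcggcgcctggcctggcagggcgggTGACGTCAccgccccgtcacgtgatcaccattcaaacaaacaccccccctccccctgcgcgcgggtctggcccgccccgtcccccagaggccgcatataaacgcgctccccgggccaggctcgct
In HSPA6 and SERPINH1 the motifs overlap in a run of 13 bases, 3 units long, that begins 74 and 76 bases before the start. DNAJB1 has 2 separate matches, which begin 77 and 47 bases before it. The single match in JUN begins 150 bases before the start, and the element in DUSP1 125 bases before it.

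The cytosolic chaperones of the HSP70 system gave the largest changes. HSPA6, an HSP70 gene that is silent without stress, was at 4.59, 4.89, 4.75 and 4.87 on the untreated arrays, all below the detection limit, and at 13.68, 13.74, 12.49 and 12.75 after heat. The groups lay far apart, and replicates 1 and 2 were higher than 3 and 4 after heat; the change was 8.39 ± 0.24, at least 221-fold (limma, adjusted p = 9.08e-17). DNAJB1, the HSP40 partner that delivers substrates to HSP70, went from 8.99, 9.03, 9.18 and 9.21 to 13.68, 13.62, 13.44 and 13.34, a change of 4.42 ± 0.09, or 21.4-fold (limma, adjusted p = 1.90e-19). Its 4 values in each group differed by less than 0.5. HSPA1A, below the limit at 4.31 to 4.45 without heat, reached 8.67, 8.83, 7.10 and 7.05 and rose at least 5.81-fold, whereas HSPA1B, its near-identical copy, was already at 12.75 to 12.90 and rose 3.89-fold to 14.73 to 14.82. Which of these 2 transcripts each probe measured cannot be told apart.

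Of 11 tested HSP70 and HSP110 genes 7 rose and 0 fell, with a median change of 0.40 against -0.02 over all genes. HSPH1, the HSP110 nucleotide exchange factor, went from 10.96 to 11.25 without heat to 12.40 to 12.72 after it (1.46 ± 0.10). The related HSPA4 and HSPA4L rose by 0.65 ± 0.15 and 0.40 ± 0.09, while a second HSPA4 probe changed by 0.15 ± 0.18. The constitutive HSPA8 changed by 0.38 ± 0.12 (adjusted p = 0.0354), a call that ended without untreated replicate 2 (0.21) and without heat-shocked replicate 2 (0.39), 3 (0.36) or 4 (0.37). Of 15 cytosolic HSP40 genes 4 rose and 1 fell: beside DNAJB1 these were DNAJB2 at 0.72 ± 0.08, DNAJA1 at 0.54 ± 0.07 and DNAJB4, below the limit without heat, at 4.37 to 4.85 against 4.80 to 6.26 with overlapping groups (at least 1.23-fold). Median scaling left 4 HSP70 and HSP110 genes and 2 HSP40 genes called, and ended the calls of HSPA4, HSPA4L, HSPA8, DNAJB2 and DNAJA1.

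Co-chaperones and holdases moved with them. Of 5 small heat shock proteins and partners 4 rose, with a median of 1.20. BAG3, which links HSP70 to small heat shock proteins and to autophagy, went from 9.21, 9.29, 9.46 and 9.31 to 11.94, 11.84, 11.55 and 11.59, without overlap and by 2.41 ± 0.10. SERPINH1, the collagen chaperone of the endoplasmic reticulum, rose by 1.71 ± 0.12 and HSPB1, a small heat shock protein, by 1.20 ± 0.12. ZFAND2A, a stress-induced zinc finger protein that associates with the proteasome, rose by 2.35 ± 0.12 in a list of 14 ubiquitin and aggregate clearance genes of which 3 rose and 1 fell. Among 19 genes of HSP90 and its co-chaperones 5 rose, by modest amounts such as 0.68 ± 0.12 for CACYBP, 0.66 ± 0.15 for CHORDC1 and 0.55 ± 0.10 for the immunophilin FKBP4, and median scaling left 0 of the 5 calls. HSP90AA1 was at 13.71 to 13.89 without heat and 13.86 to 14.04 with it (0.18 ± 0.07, adjusted p = 0.0828). Its 3 tested probes disagreed, since the other two changed by 0.54 ± 0.10 and 0.02 ± 0.11.

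The remaining folding lists held fewer calls. Of 8 CCT chaperonin subunits and 14 mitochondrial chaperones and proteases none passed the test, with medians of 0.09 and 0.02, and the mitochondrial HSP60 gene HSPD1 changed by 0.06 ± 0.08. Of 18 genes of endoplasmic reticulum chaperones and the unfolded protein response 1 rose and 2 fell. Counts this small do not set the list apart from the background of 5.70% for falls. Among those that fell was HSPA5, the HSP70 of that compartment. It was at 9.02, 9.01, 8.90 and 8.90 without heat and 8.47, 8.56, 8.72 and 8.64 with it (-0.36 ± 0.09). Under median scaling its change was -0.49 and did not pass the test. HSF1 itself was near the detection limit at 5.04 to 5.66 and 4.65 to 5.77 and did not pass the test.

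**Figure D1:**
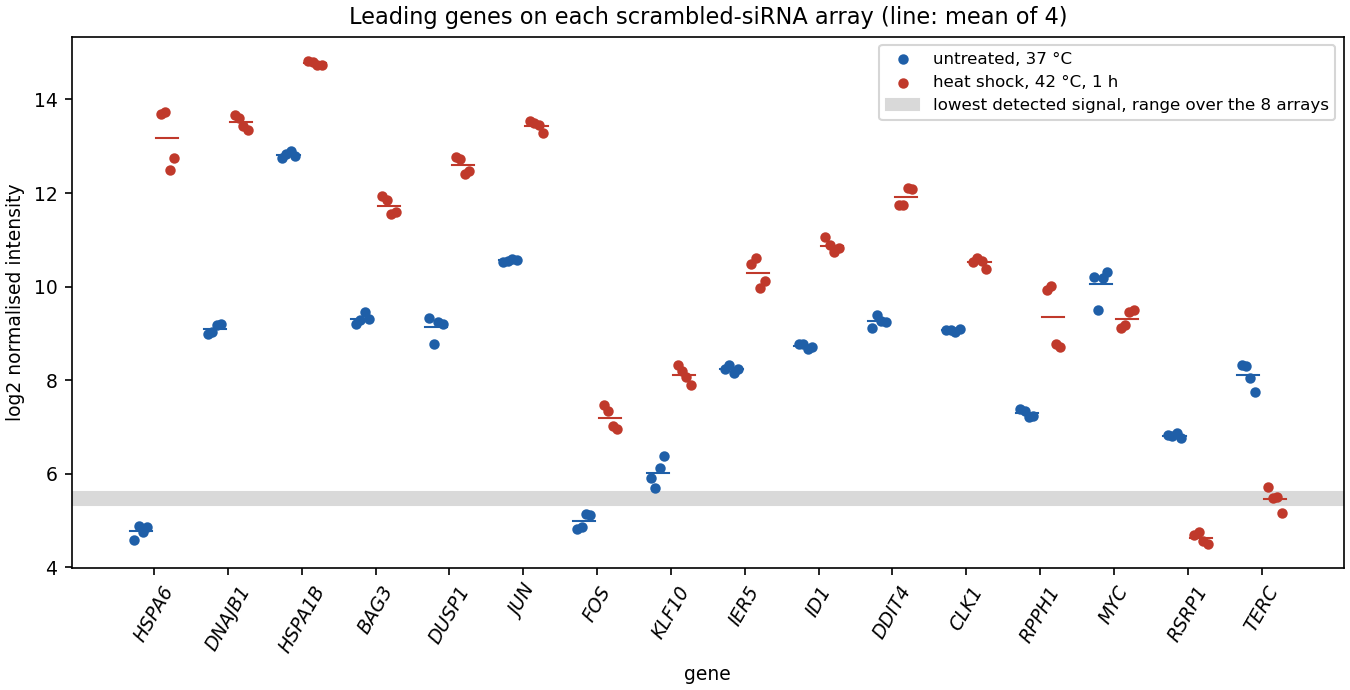
Log2 normalised intensity of 16 genes on each of the 8 arrays (untreated in blue, heat-shocked in red, replicates 1 to 4 from left to right within a group, lines at the means of 4), with the range of the lowest detected signal in grey. HSPA6 and FOS cross from below the grey band to above it, RSRP1 does the reverse, and in MYC the untreated replicate 2 lies at the heat-shocked level.

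Immediate early transcription factors were the next large group. Of 12 AP-1, ATF3 and MAF factors 8 rose and 1 fell, with a median of 0.51. JUN, the main AP-1 subunit, went from 10.53, 10.55, 10.60 and 10.57 to 13.53, 13.50, 13.44 and 13.29, or 7.35-fold (2.88 ± 0.09, limma, adjusted p = 2.97e-16), with narrow and well separated groups. FOS, its partner, was below the detection limit at 4.82 to 5.14 and rose at least 3.52-fold to 6.96 to 7.47. ATF3, a stress-induced repressor, rose by 2.14 ± 0.12, while FOSB and JUND rose by 0.77 ± 0.17 and 0.51 ± 0.09, calls that median scaling ended. Of 9 EGR, KLF and NR4A factors 6 rose and 0 fell, with a median of 1.03. KLF10, a repressor also induced by TGF-beta, was at 5.91, 5.69, 6.12 and 6.39 without heat and 8.32, 8.20, 8.06 and 7.89 with it (2.09 ± 0.15), and KLF6, KLF2 and EGR1 rose by 1.80, 1.09 and 1.03. NR4A2, a nuclear receptor gene below the limit without heat, rose at least 1.67-fold. Median scaling left 3 AP-1 and 5 EGR, KLF and NR4A genes called.

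Some genes that restrain MAP kinase signalling also rose, and that signalling itself was not measured. DUSP1, the nuclear phosphatase of p38 and JNK, went from 9.34, 8.78, 9.23 and 9.21 to 12.76, 12.73, 12.40 and 12.47, or 10.9-fold (3.45 ± 0.13, limma, adjusted p = 9.75e-15). The groups were more than 3 log2 units apart. In its list of 12 phosphatases and feedback inhibitors 4 rose and 1 fell, among them the receptor kinase antagonist SPRY2 at 0.87 ± 0.13, and DUSP1 alone was called under median scaling. Outside the lists, the kinase gene MAP3K8 rose at least 1.64-fold from below the limit, and RGS2, an inhibitor of G protein signalling, rose by 1.15 ± 0.17.

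The gene lists were chosen with earlier results of these data known, so their ranks are descriptive only. Among lists with at least 8 tested members, the GADD45, IER and growth-restraint genes had the largest share of calls. Of 21 tested members 17 rose and 0 fell, with a median of 0.88, and 11 kept the call under median scaling. IER5, which is known to bind and activate HSF1, went from 8.23, 8.32, 8.16 and 8.24 to 10.48, 10.61, 9.98 and 10.12 (2.06 ± 0.13). PPP1R15A (GADD34), the phosphatase subunit that reverses eIF2alpha phosphorylation, rose by 1.83 ± 0.10. GADD45B, GADD45G and GADD45A, activators of p38 and JNK signalling, rose by 1.54, 1.09 and 0.79 (GADD45B was detected on 2 and GADD45G on 3 of the 4 untreated arrays), and the CDK4-associated SERTAD1 by 1.16 ± 0.09. The antiproliferative genes TOB1 and TOB2 rose by 0.64 and 0.68, and median scaling ended those 2 calls and that of GADD45A.

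Among cell cycle genes a few regulators changed. Of 15 genes of MYC, cyclins and G1 control 3 rose and 1 fell. MYC was at 10.20, 9.49, 10.19 and 10.30 without heat and 9.11, 9.19, 9.46 and 9.49 with it, so it fell by 0.73 ± 0.13 (adjusted p = 0.000353), with untreated replicate 2 low and the groups touching. MXD1, which competes with MYC for their partner MAX, rose by 0.98 ± 0.10, and CDKN1B (p27), an inhibitor of cyclin-dependent kinases, by 0.76 ± 0.11. WEE1, the kinase that blocks entry into mitosis, rose by 0.73 ± 0.12, a call that median scaling ended. Of 29 replication and S phase genes 2 rose and 2 fell, and the mitosis list had 2 rises and 1 fall among 35 genes. The background was 5.97% higher and 5.70% lower, and counts this small do not set either list apart from it. CCND1, the G1 cyclin D1, changed by -0.08 ± 0.07.

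Feedback genes of BMP, TGF-beta and Notch signalling also rose early. Of 18 such genes 8 rose and 3 fell, with a median of 0.20. ID1, an inhibitor of basic helix-loop-helix factors, went from 8.77, 8.77, 8.67 and 8.70 to 11.06, 10.89, 10.74 and 10.82 (2.15 ± 0.10), with no overlap and little spread. SMAD7 and BAMBI, inhibitors of TGF-beta family receptors, rose by 1.87 ± 0.09 and 1.10 ± 0.11, and ID3 by 1.31 ± 0.07. HES1, the Notch effector, rose by 1.93 ± 0.10 from 6.09 to 6.38 to 8.05 to 8.37. In the other direction, HES4 fell by 0.65 ± 0.13. Median scaling left 5 of the rises and 1 of the falls. Outside the list, the receptor gene NOTCH3 fell by 0.86 ± 0.14, and LFNG, a glycosyltransferase that modifies Notch receptors, was detected on all 4 untreated arrays and on no heat-shocked one (at least 1.11-fold lower).

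Further transcription factors rose at least 2-fold. FOXQ1 was below the limit at 5.16 to 5.28 and rose at least 2.57-fold. GATA2 rose by 1.21 ± 0.14, FOXF1 by 1.05 ± 0.14 and the circadian repressor BHLHE40 by 1.26 ± 0.08, the largest of 3 rises among 14 clock genes. TIPARP, an ADP-ribosyltransferase that represses the aryl hydrocarbon receptor, rose by 1.15 ± 0.08. Of 293 numbered zinc finger (ZNF) genes, most of which encode DNA-binding repressors, 57 rose and 13 fell, with a median of 0.06. ZNF250 was at 6.40, 6.57, 6.42 and 6.70 without heat and 7.56, 7.59, 7.65 and 7.60 with it (1.08 ± 0.08), and was the largest rise, and ZNF101, chosen after its values were seen as the largest fall and detected on 1 of 4 heat-shocked arrays, fell by 0.70 ± 0.11. Median scaling left 4 ZNF genes higher and 4 lower and put the family's median at -0.04 beside -0.12 over all genes, so the family's median lay above that of all genes under both scalings.

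In other stress programmes, counts are read beside the background of 5.97% higher and 5.70% lower. DDIT4, an inhibitor of mTORC1, went from 9.12, 9.39, 9.27 and 9.25 to 11.75, 11.75, 12.10 and 12.09, or 6.35-fold (2.67 ± 0.10), and here replicates 3 and 4 were the higher ones after heat. Outside the stress lists TXNIP, which binds thioredoxin and limits glucose uptake, rose 4.00-fold (2.00 ± 0.16). DDIT3 (CHOP), a transcription factor of the integrated stress response, rose by 0.90 ± 0.10. The list of 20 integrated stress response and mTORC1 genes had 5 rises and 2 falls (2 and 0 with median scaling), and the amino acid response gene ASNS changed by 0.07 ± 0.07. ATF4 changed by 0.03 on its brightest probe, while other tested probes of it changed by 0.04 ± 0.11 and -1.33 ± 0.19. Of 16 NRF2 antioxidant genes 1 rose, near the background share. The riser was NFE2L2 itself, which encodes NRF2 (not called with median scaling), with HMOX1 at -0.15 ± 0.10 and NQO1 at -0.05 ± 0.09. Of 5 metallothionein and zinc export genes none rose, and the zinc exporter SLC30A1 fell by 0.75 ± 0.09.

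**Figure D2:**
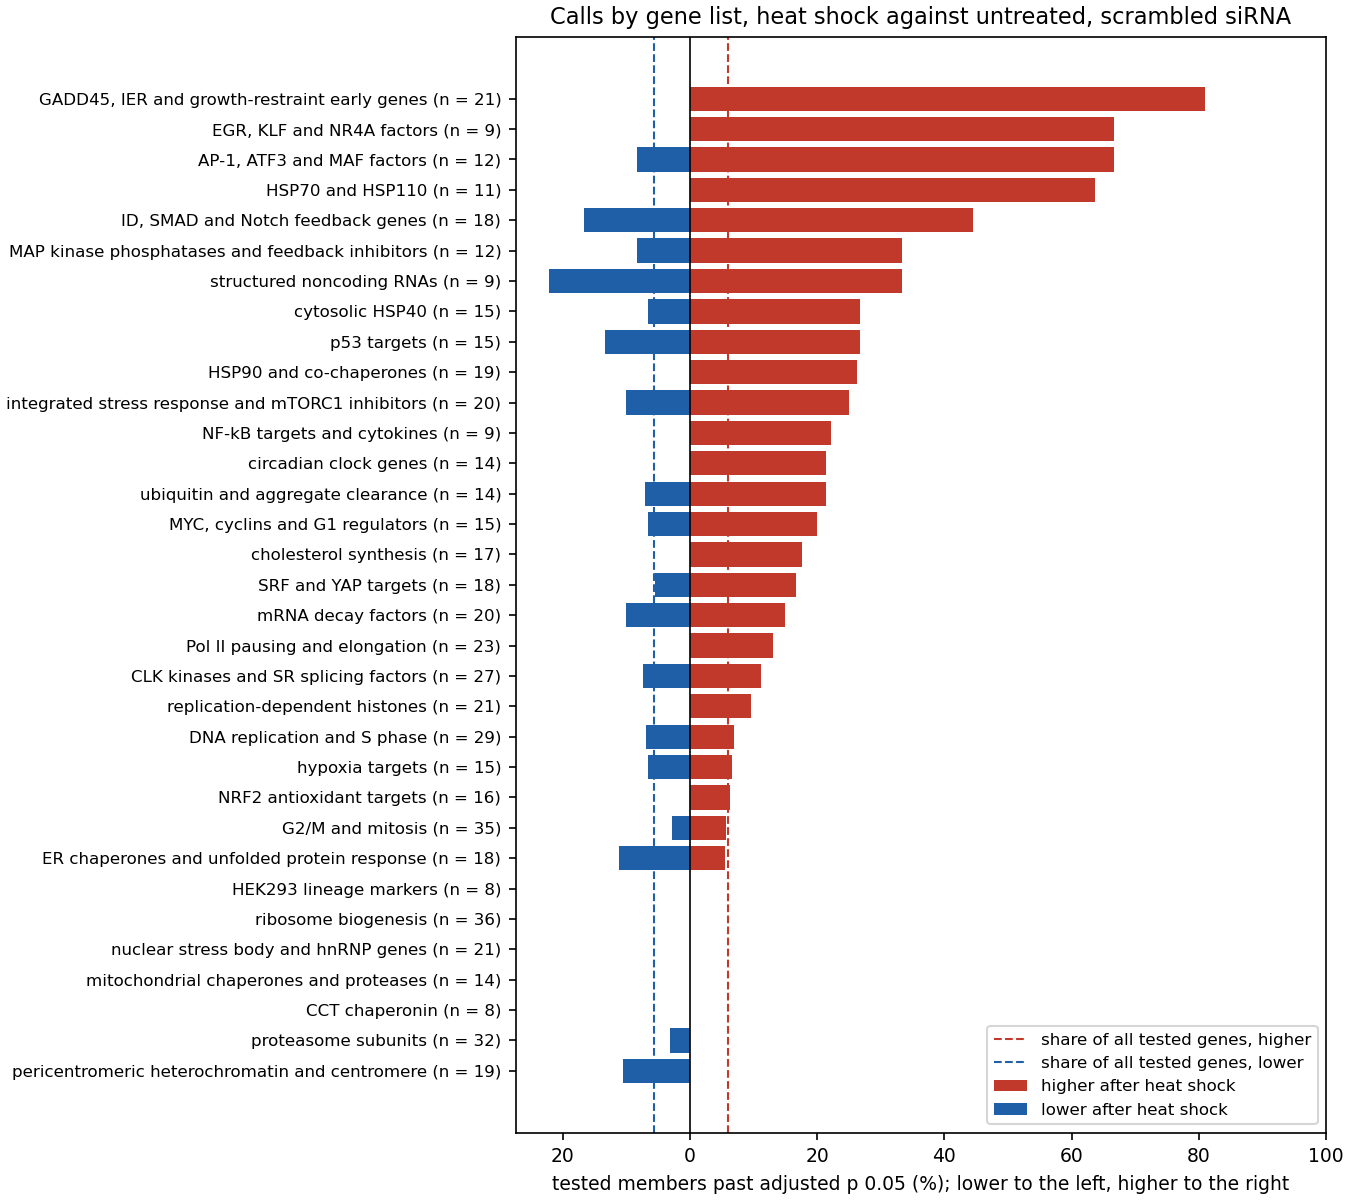
Share of the tested members of each list with at least 8 tested members that rose (red, to the right) or fell (blue, to the left) after heat shock, in percent, with n beside each name and dashed lines at the shares over all 10147 tested genes (5.97% and 5.70%). The growth-restraint, EGR/KLF/NR4A, AP-1 and HSP70 lists reach far beyond the dashed line, and 5 lists have no call. The lists were chosen with earlier results of these data known.

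Among 27 genes of CLK kinases and SR splicing factors 3 rose and 2 fell, beside a background of 5.97% higher and 5.70% lower. Counts this small do not set the list apart from it. The 3 rises were all CLK kinases. CLK1 went from 9.07, 9.07, 9.02 and 9.09 to 10.53, 10.61, 10.55 and 10.38 (1.46 ± 0.09), and CLK4 and CLK3 rose by 0.83 ± 0.10 and 0.53 ± 0.09, the last of which median scaling ended. RSRP1, an arginine- and serine-rich protein gene, was at 6.82, 6.81, 6.86 and 6.78 without heat and below the detection limit at 4.68, 4.75, 4.56 and 4.50 with it, a fall of at least 2.47-fold (-2.20 ± 0.08). The other tested RSRP1 probe changed by 0.22 ± 0.12, so the fall holds for 1 of 2 probes. These were 4 of the 5 calls among the 27 CLK and SR splicing genes, and the remaining call was a fall. HNRNPDL, an hnRNP gene whose transcript is known to be spliced in several forms, rose by 1.29 ± 0.11 on its brighter probe and changed by -0.14 ± 0.09 on the other. PRP4K, a kinase of the spliceosome, rose by 1.02 ± 0.09, and of 21 nuclear stress body and hnRNP genes, SAFB (0.04 ± 0.10) and HNRNPM (0.02 ± 0.07) included, none passed the test. HNRNPDL is not a member of that list, which was counted on the brightest probe of each gene, and another probe of its member HNRNPA2B1 changed by -1.27 ± 0.15 while the brightest changed by 0.05 ± 0.10.

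Short structured noncoding RNAs changed strongly in both directions. The labelling kit is known to prime on poly(A), and which form of each RNA gave the signal was not tested. TERC, the RNA template of telomerase, was at 8.33, 8.31, 8.05 and 7.75 without heat and 5.72, 5.48, 5.51 and 5.17 with it, detected on 2 of the 4 heat-shocked arrays. The measured fall was 6.25-fold (-2.64 ± 0.16, limma, adjusted p = 7.98e-11). SCARNA9, a guide RNA of Cajal bodies, fell by 1.31 ± 0.11 and was also detected on 2 of the 4 heat-shocked arrays. RPPH1, the RNA of ribonuclease P, went from 7.37, 7.35, 7.22 and 7.24 to 9.93, 10.01, 8.77 and 8.71 (2.06 ± 0.28), with all heat-shocked values higher and replicates 1 and 2 more than 1 unit above 3 and 4. RN7SK, the RNA that holds the elongation factor P-TEFb inactive, and RNU6ATAC, of the minor spliceosome, rose by 1.28 ± 0.22 and 1.79 ± 0.38 with the same split between replicates, and in replicates 3 and 4 alone neither passed the test (adjusted p from limma). All of these were among 9 structured RNAs of which 3 rose and 2 fell.

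Small nucleolar RNAs, which guide modification of ribosomal RNA and mostly lie in introns of other genes, split as well. Of 37 tested small nucleolar and Cajal body RNAs 9 rose, 10 fell and 18 did not pass. SNORD56 went from 7.98, 8.10, 8.09 and 7.93 to 9.88, 10.26, 10.03 and 9.96 (2.01 ± 0.13), while NOP56, the gene that holds it in the RefSeq annotation, changed by -0.23 ± 0.13. Members of the SNORD14 family went both ways. SNORD14C and SNORD14D, in HSPA8, rose by 1.54 ± 0.11 and 1.13 ± 0.13. HSPA8 itself rose by 0.38 ± 0.12, a call that leaving out 1 array could end. SNORD14A, in RPS13, fell by 0.93 ± 0.10 while RPS13 changed by -0.09 ± 0.08. SNORA33 fell by 0.82 ± 0.09 with RPS12, which holds it, at -0.01 ± 0.07. The genes that hold these RNAs were looked up whatever their values. The family members have similar sequences, so how far their probes cross-react cannot be told apart here. Among 5 long noncoding and snoRNA host genes, SNHG15 rose by 0.89 ± 0.14 and SNHG4 fell by 0.70 ± 0.11.

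**Figure D3:**
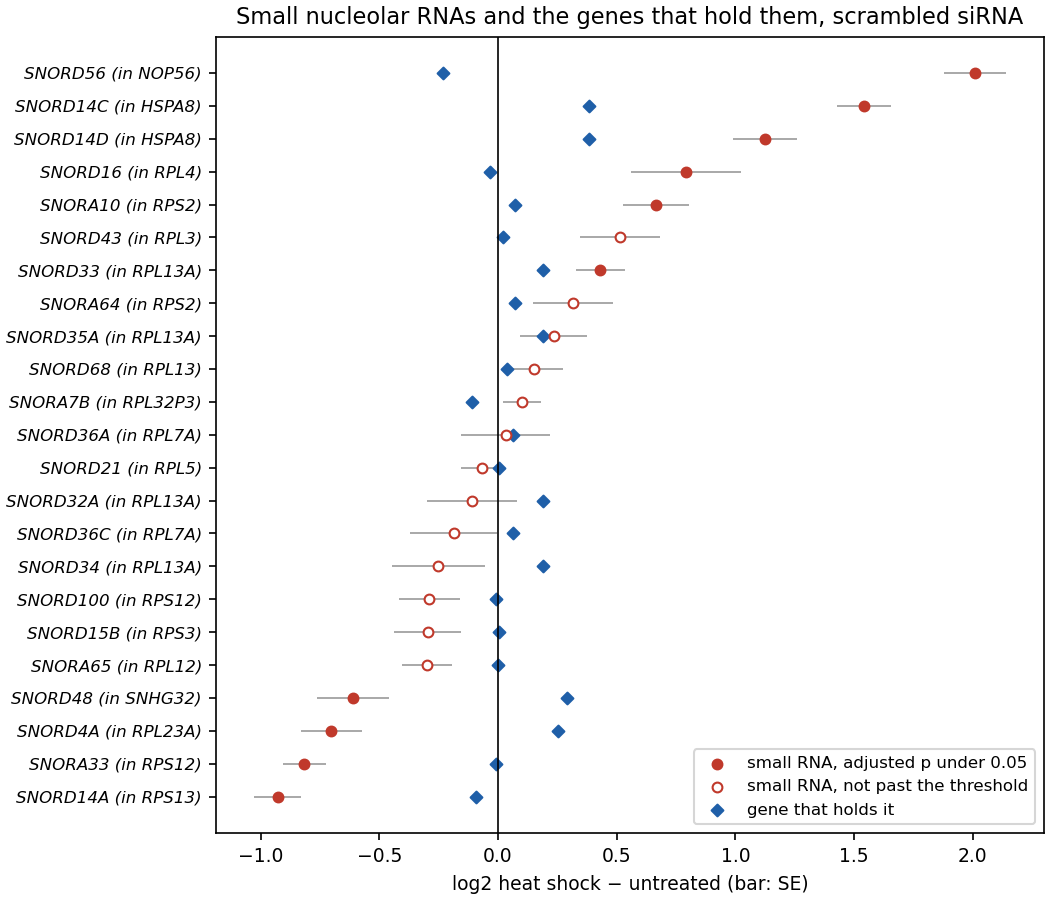
Log2 change after heat shock of the 23 small nucleolar RNAs whose holding gene was tested (circles with SE bars, filled where the adjusted p was under 0.05) and of that gene (blue diamonds). The circles run from 2.01 for SNORD56 to -0.93 for SNORD14A, while the diamonds stay between -0.23 and 0.38.

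Falls in messenger RNAs were smaller than the rises. The largest was that of RSRP1, given above for 1 of 2 probes (-2.20 ± 0.08). CCDC71, a coiled-coil protein gene, went from 9.0, 8.92, 8.82 and 8.92 to 7.37, 7.74, 7.77 and 7.55 (-1.31 ± 0.09). HPS6, a gene of lysosome-related organelle biogenesis, SLITRK3, a synaptic adhesion gene, and FJX1 fell by 1.00, 1.00 and 1.01 (SLITRK3 was detected on 1 of 4 heat-shocked arrays), and no groups overlapped in these. Below 2-fold followed GEMIN4, a subunit of the SMN complex that assembles spliceosomal ribonucleoproteins (1.77-fold lower), DDX28, an RNA helicase of mitochondria (1.85-fold lower), and HASPIN, the mitotic kinase of histone H3 (1.73-fold lower). CENPB, which binds centromeric satellite DNA, fell by 0.51 ± 0.07, one of 2 falls and 0 rises among 19 heterochromatin and centromere genes (1 fall with median scaling). Among the 1184 called genes 20 were detected on all untreated arrays and on no heat-shocked one, SLC40A1, the iron exporter, and CLDN23, a tight junction gene, among them, and 12 showed the reverse, LTA, a cytokine gene, included (at least 2.03-fold).

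Calls in the other signalling and stress lists are set against the background of 5.97% higher and 5.70% lower. Of 18 SRF and YAP targets 3 rose and 1 fell, with CCN1, a matricellular protein gene, at a mean of 7.26 without heat and 9.15 with it (1.90 ± 0.13), of 15 p53 targets 4 rose and 2 fell, both above the background share, and of 9 NF-kB targets and cytokines 2 rose. Of 20 mRNA decay factors 3 rose and 2 fell, of 23 genes of RNA polymerase II pausing and elongation 3 rose, and of 17 cholesterol synthesis genes 3 rose. Of 21 replication-dependent histone genes 2 rose, H2AC18 by 0.92 ± 0.10. Of 15 hypoxia targets 1 rose, ADM, a vasodilator peptide gene, by 0.85 ± 0.09, and 1 fell. Under median scaling the p53, NF-kB, mRNA decay, pausing and cholesterol lists had 0 calls.

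Several large gene families held few or no calls, beside 5.97% of all tested genes higher and 5.70% lower. Of 72 ribosomal protein genes 1 rose, of 69 respiratory chain genes none passed, of 36 ribosome biogenesis genes none passed, and of 32 proteasome subunits 1 fell. Of 76 mitochondrial ribosomal protein genes 1 rose and 1 fell. Medians in these groups lay between -0.03 and 0.02.

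Genes that rose at least 2-fold were short in the RefSeq annotation. The 65 protein-coding ones had a median span of 4.90 kb (quartiles 2.71 and 13.7 kb), against 30.1 kb over all 9905 tested protein-coding genes, and 33 of them (50.8%) spanned under 5 kb against 9.66%. ID1, at 1.22 kb, was the shortest and SGK1, at 149 kb, the longest. Genes that rose 1.5 to 2-fold had a median of 15.9 kb and those that fell at least 1.5-fold a median of 10.4 kb.

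In the window from 250 bases before to 50 after the start, searched on both strands, GAANNTTC stood in 12 of the 54 strong risers with a promoter in the table (22.2%), among them HES1, ID1, HSPB1 and both HSPA1 genes, and in 6.53% of 8300 tested genes and 7.38% of all 15843 protein-coding genes there. The other order, TTCNNGAA, stood in 6 of 54 (11.1%) against 8.54%, and the 3-unit run, GAANNTTC followed by NNGAA, in HSPA6 and SERPINH1 (3.70% against 0.470%). The windows of BAG3, HSPH1 and DUSP1 held none of these heat shock motifs. TATAAA stood in 16 of 54 (29.6%) against 8.10% of tested and 12.4% of all genes, FOS and ATF3 included, while TGACGTCA, in DUSP1 and PPP1R15A, stood in 3.70% against 4.02%. A gene with several starts counted once if any window held the motif. These are counts of letters in a window, and the other 11 protein-coding risers had no entry that was used.

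The size of the response differed between replicates. Of the 74 genes that rose at least 2-fold, 62 had a larger mean change in replicates 1 and 2, the arrays with the higher raw intensities, than in replicates 3 and 4, with medians of 1.63 and 1.25. All 9 chaperone genes among them did so, with HSPA1A at 4.43 and 2.64 and HSPA6 at 8.97 and 7.81, while DDIT4 (2.49 and 2.84) and IER5L (1.02 and 1.49) were among the 12 that did not. Fitted apart, replicates 1 and 2 gave 567 calls and replicates 3 and 4 gave 261. The second fit held fewer arrays, since the Sat III siRNA arm had no untreated or heat-shocked replicate 3. These 2 counts therefore do not compare the replicates at equal power. The 74 genes were read off the same arrays and are no separate observations. The same share over all tested genes was not counted. Replicates 1 and 2 include untreated replicate 2, which stood apart most over all genes. The parts of that array and of raw intensity in the difference in response size were not tested.

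**Figure D4:**
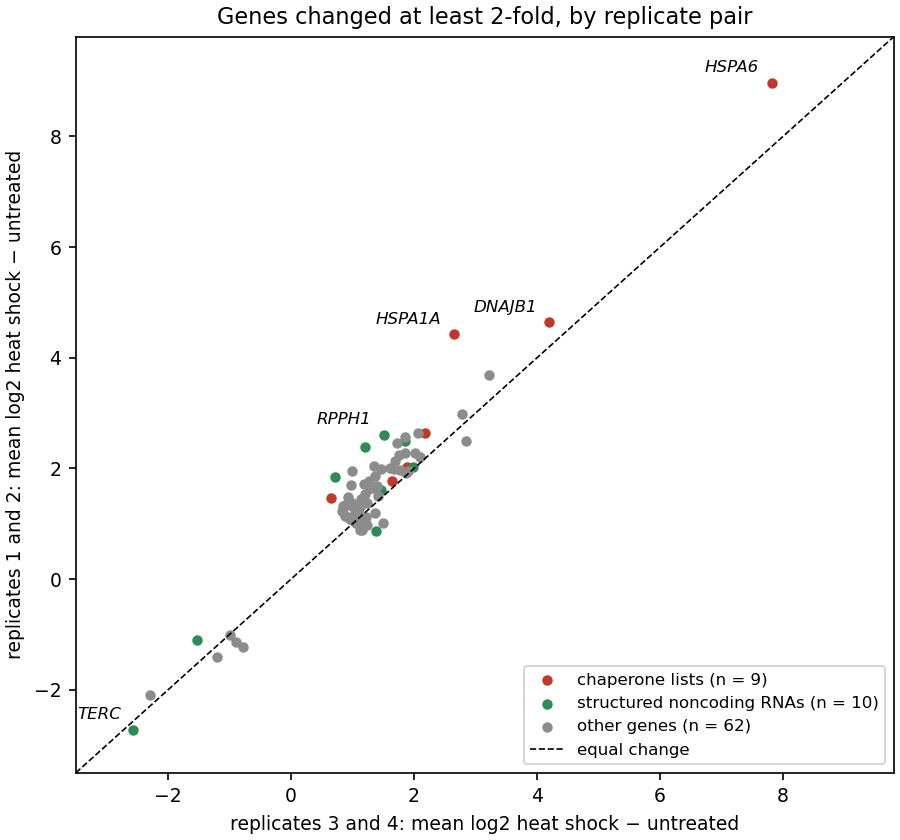
Mean log2 change in replicates 1 and 2 (vertical axis) against that in replicates 3 and 4 (horizontal axis) for the 81 genes changed at least 2-fold, with chaperone lists in red, structured noncoding RNAs in green, other genes in grey and a dashed line of equal change. Most rising genes, 62 of 74, lie above the line, HSPA1A and RPPH1 by more than 1 unit.

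After 6 h of recovery, measured against the same untreated arrays, 25 of the 74 strong risers were still called higher, 48 were not called and 1, SNORD14D, was lower (-0.51), beside 10.9% of all genes called. Their median stood at 0.28. Since both comparisons use the same untreated arrays, their values are given side by side only. JUN was at 2.88 after heat and 0.19 in recovery, DUSP1 at 3.45 and 0.36, and ID1 at 2.15 and 0.17, so these had returned close to the untreated level. HSPA6 was at 8.39 and 5.52 and DNAJB1 at 4.42 and 0.75. SERPINH1 (1.71 and 2.69), HSPH1 (1.46 and 2.02) and HSPB1 (1.20 and 2.00) were the 3 strong risers with a higher value in recovery than after heat.

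The Sat III siRNA arm gave an estimate of the same heat response on other arrays, 3 against 3. Of the 1184 genes called in scrambled cells, 1146 had the same sign there and 583 were also called, where 7.62% of all genes were called, and all 81 genes changed at least 2-fold had the same sign. Across genes, which are no independent replicates and were processed together, the changes in both arms had a Pearson r of 0.955 over the 1184 and 0.806 over all 10147. HSPA6 rose by 8.67 ± 0.27 in that arm, DNAJB1 by 4.41 ± 0.10, DUSP1 by 3.61 ± 0.15 and JUN by 3.06 ± 0.10. The test of the difference between the arms called 0 genes (limma, smallest adjusted p = 0.415), with 368 genes at an unadjusted p under 0.05. Among the 81 genes the difference, Sat III siRNA minus scrambled, ran from -0.45 ± 0.24 for NR4A2 to 0.68 ± 0.59 for RNU6ATAC, with a median of -0.01, which leaves room for differences of that order at these sample sizes. Without the Sat III siRNA heat-shocked replicate 4, 2 genes were called. The Sat III transcripts themselves were not analysed here.

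**Figure D5:**
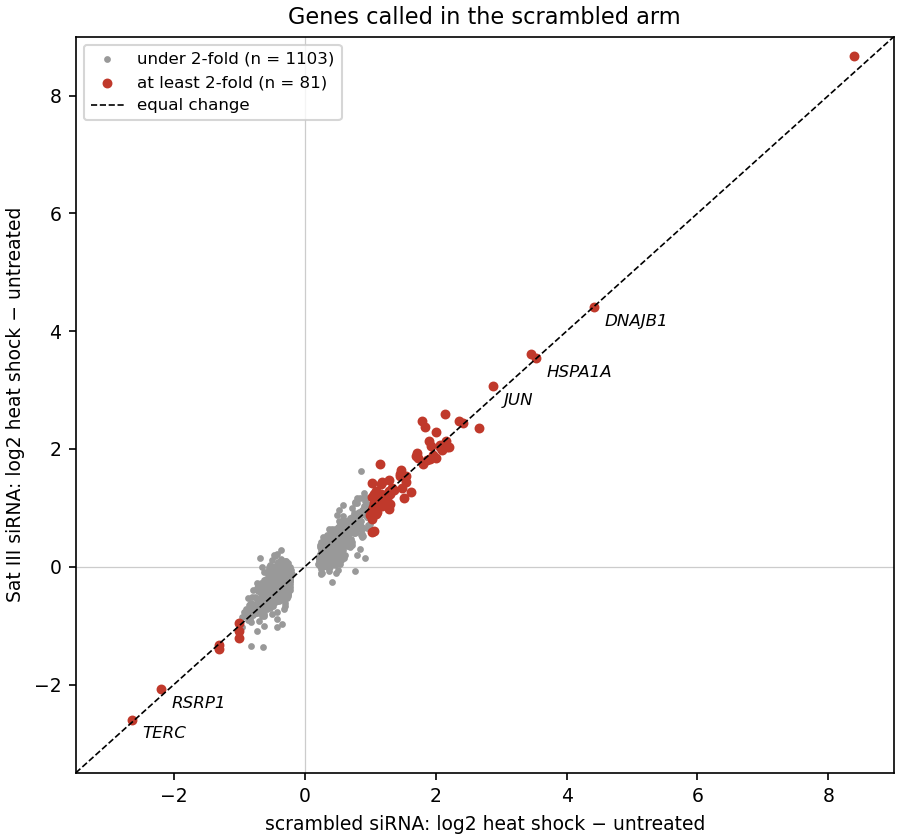
Log2 change after heat shock in the Sat III siRNA arm (vertical axis, 3 against 3 arrays) against the scrambled arm (horizontal axis, 4 against 4) for the 1184 genes called in the scrambled arm, with the 81 changed at least 2-fold in red and a dashed line of equal change. The red points follow the line from TERC, at -2.64 and -2.60, to HSPA6, at 8.39 and 8.67.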

How the data were processed

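RNA was measured on Illumina bead arrays. The deposited scanner table holds, per the file headers, an intensity per probe and array on a linear scale and a detection p-value against negative control beads. Scanner software is not named in the labels or headers. The authors' normalised table was not used here.

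Intensities of all 22 arrays were corrected with the normexp method from the detection p-values (offset 16), quantile normalised and put on the log2 scale with limma 3.58.1 in R 4.3.3. Of 48803 probes, 15324 had a detection p-value under 0.01 on at least 3 arrays. Probes were named from the platform annotation (28098 with 1 symbol, 13 with several, 28059 updated through RefSeq), and each gene took its brightest probe. One limma fit with a mean per group over all 22 arrays gave the changes, with Benjamini-Hochberg adjustment over 10147 genes, and was tested on simulated data. A gene not detected on any array of a group has only a bound there: the brighter group's mean was set against the dim group's mean of its own signal or the lowest signal detected on that array, whichever was larger. Named genes passed the threshold with a 2-fold change, were among the 30 largest falls, belonged to a gene list, were detected in only 1 group, or had one of the 10 smallest p-values for the difference between arms. The genes and lists were chosen with earlier results of these data known. Promoters and gene spans came from RefSeq tables (GRCh38.p14). The alternatives varied background correction, scaling, filter, probe choice, blocks and the arrays used. The number of arrays limits the precision.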

Additional observations from a re-analysis of the deposited data

Results flagged for a closer look

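Among 282 sets of 4 arrays, 12 held 1 array that lay far from the other 3, and chance alone flags about 1 in 20 such sets. In 5 of them the array was untreated replicate 2, which stood apart over all genes as well. It was at 10.90 for CACYBP (others 11.53 to 11.60), 12.77 for HSPA8 (13.43 to 13.51), 5.27 for MEX3B, an RNA-binding protein gene that rose by 1.62 ± 0.15 (6.12 to 6.19), 9.49 for MYC (10.19 to 10.30) and 11.55 for SNHG32 (11.32 to 11.35).

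In untreated replicate 3, ATF3 was low at 8.63 (8.98 to 9.02), CLDN23 low at 5.85 (6.09 to 6.11) and JUND high at 11.85 (11.64 to 11.65). Untreated replicate 4 was low for RGS2 at 7.72 (8.0 to 8.02), and untreated replicate 1 was high for SLC30A1 at 7.96 (7.87 to 7.89). Heat-shocked replicate 3 was low for ACTRT3, an actin-related gene that rose by 1.18 ± 0.12, at 6.58 (7.10 to 7.17), and for SERTAD3, which rose by 0.88 ± 0.10, at 8.16 (8.48 to 8.51). Of these genes HSPA8 alone lost its call when 1 of the 8 arrays was left out.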

How the results depend on the processing

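The 1184 calls became 251 with median scaling, 567 in replicates 1 and 2 alone (59.3% of them higher, against 51.2%) and 261 in replicates 3 and 4 alone (67.8% higher), and 843 to 1204 under the other settings of background, filter, probe and arrays; the cause was not tested. The fit of replicates 3 and 4 alone held fewer arrays than that of replicates 1 and 2 alone. Leaving out 1 array gave 907 to 1033 calls and 67 to 84 rises of at least 2-fold. Those 74 rises became 42 without background correction and 60 with median scaling. Deviations of same-numbered untreated and heat-shocked arrays correlated weakly, at 0.212, 0.088, -0.0054 and 0.21 for replicates 1 to 4. For untreated replicates 1, 2 and 4 the same-numbered array gave the highest correlation. Untreated replicate 3 had its highest, 0.0793, with heat-shocked replicate 1. Whether the numbers pair the arrays was not tested further. Blocking by replicate number gave 1251 calls, 1149 of them among the 1184. A block that parted replicates 1 and 2 from replicates 3 and 4 raised the count to 1345, with 1181 shared. The replicate block gave 0 calls for the difference between arms. That difference gave 0 to 2 calls when 1 array was left out, 2 without the Sat III siRNA heat-shocked replicate 4.

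Of 132 called genes on which the values were followed, none changed sign under any setting. Median scaling ended 24 of their calls, replicates 1 and 2 alone 5 and replicates 3 and 4 alone 29. With signals near background, HSF1, HSPA1A and the other dim genes have only bounds or wide errors.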
